A study of Drosophila melanogaster with 9 samples.

Results

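The piRNA pathway silences transposons in the germline of animals. Its effectors are Argonaute proteins of the PIWI clade, which carry piRNAs, small RNAs that guide them to matching transcripts; in flies piwi acts in the nucleus on chromatin, while aub and AGO3 cut transcripts in the cytoplasm and amplify piRNAs in the ping-pong cycle. RNA helicases, a nuclease that cuts precursors and proteins with Tudor domains, which bind methylated arginines of PIWI proteins, serve these steps. Most of these genes are known from ovary and testis, and piwi also from the somatic cells of the gonad. Their RNA is described here in larval hemocytes, the blood cells of Drosophila melanogaster.

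The genes are 10 of the 17874 listed in the deposited count table, taken by exact symbol: the PIWI genes piwi, aub and AGO3, the helicase genes vas, spn-E and armi, the nuclease gene zuc, and the Tudor domain genes qin, krimp and tej. Of them, 9 passed the filter on low counts and were tested, and armi was at 0 in every library. Hemocytes were bled from third-instar larvae kept at 25 °C, 300 larvae per library, and total RNA was sequenced after removal of ribosomal RNA in 9 libraries of 3 groups with 3 biological replicates each. The groups are larvae with the transgene UAS-BCR-ABLP210, written p210 here, larvae with UAS-BCR-ABLT315I, written T315I, and the control strain W1118. BCR-ABL is the human fusion kinase of chronic myeloid leukaemia, and T315I is a mutant kinase that imatinib no longer inhibits. The labels do not give the driver of the transgenes, the cells that expressed them, or the fly strain in which they were placed. Transgene, driver and strain therefore cannot be told apart in either comparison with the control, nor form of kinase and strain between T315I and p210. Both comparisons share the same 3 control libraries.

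Total counts were 18.16, 14.95 and 14.48 M in p210, 13.86, 14.59 and 15.72 M in T315I and 5.40, 8.24 and 9.84 M in the control, so that 3 counts stand for 0.17 to 0.553 CPM (counts per M counts, from library totals scaled by TMM). The summed CPM of 13 markers of plasmatocytes, the common larval blood cell, was 32900 to 50370 in p210, 37370 to 47830 in T315I and 27170 to 31880 in the control. RNA of other tissues was also present and was highest in the control: 13 fat body genes summed to 4855 to 6496 CPM in p210, 8468 to 12620 in T315I and 39610 to 98820 in the control, and 13 muscle genes to 332 to 373, 375 to 443 and 1352 to 2986 CPM. In these pooled cells, fewer cells of a type and less RNA per cell cannot be told apart. Scaling to the plasmatocyte markers in place of TMM moved the median log2 fold change of all genes to -0.46 for p210 and -0.49 for T315I, against 0.05 and -0.02 under TMM, and the share of calls that were higher to 12.3% and 10.4%, against 47% and 41.7%. For p210 that share was 36% with upper-quartile scaling and 35% with no scaling factors. Some of the 13 plasmatocyte markers themselves moved: 6 were called higher in p210 and 5 in T315I, with 0 lower. Of all genes tested, 26.9% were called higher in p210 and 20.5% in T315I. The marker Ppn averaged 14220 CPM in p210, 12770 in T315I and 4378 in the control. Hml averaged 12880, 12930 and 11580 CPM and was not called. The part of single markers in the effect of this scaling was not tested.

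How reads were counted bears on 4 of the 10 genes. In this table genes whose span lies wholly under another gene have no counts: none of 869 protein-coding genes under genes of their own strand had a count, 1056 of 1058 that are covered once the other strand is added had none either, and 323 of 7267 with no overlap had none. Of the covered genes, 1204 share no exon base with another gene and lie inside introns, and all 1204 were at 0, as if reads were counted over whole spans, introns included, and reads in 2 spans were left out. The gene armi, a helicase that hands precursors to the nuclease zuc, lies at 3L:3461317-3466314 wholly inside CG46463 on the same strand, and both were at 0 in all 9 libraries, which is no measure of its expression. Of vas, at 2L:15061656-15074311, 17.2% of the span is free of the genes solo and vig, both at 0. Of qin, at 3R:18591027-18650137, 30.8% is free of the spans of CG14304, CG14301 and smaller genes on the other strand. Of its exon bases, 99.4% share no base with exons of those genes. How many qin exon bases lie within their spans, and so may be uncounted, was not computed. AGO3, at 3L:23554593-23689640, spans 135048 bp, of which 2.36% are exons and 70.5% are 106 annotated transposon insertions, so its count can hold intron and transposon reads as well as spliced RNA. The other 6 have 80.4 to 100% of their span free. Coordinates are those of BDGP6.54, the assembly named dm6 by the submitters.

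**Figure D1:**
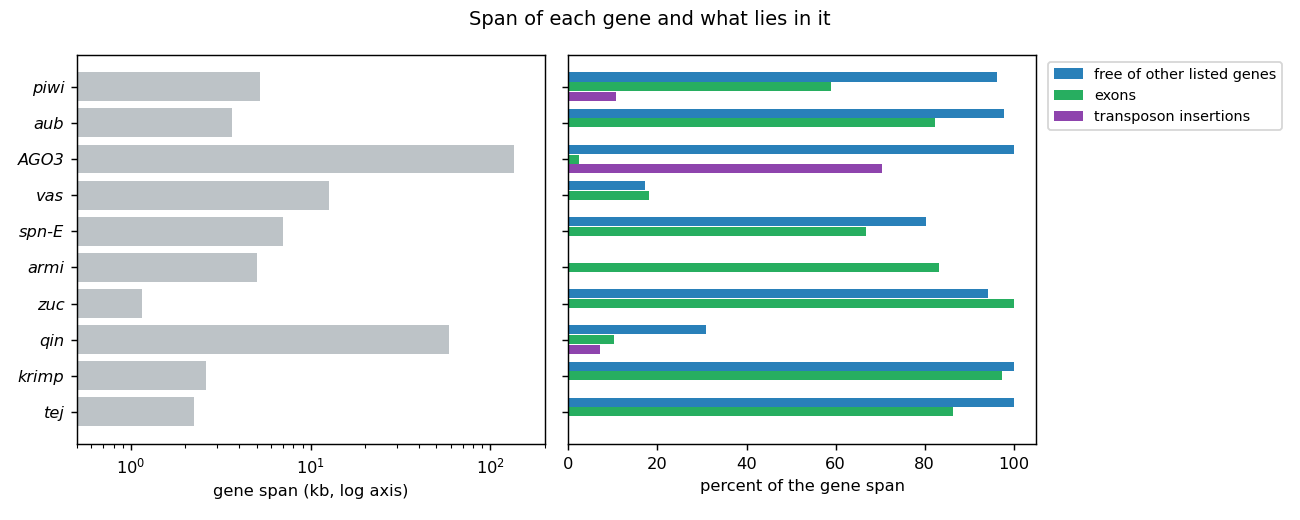
Length of each gene's span (left, log axis) and the percent of it that is free of other genes, that is exon and that is annotated transposon insertion (right). AGO3 has the longest span of the 10, at 135048 bp with 70.5% in transposon insertions, and armi has 0% free.

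Against the control, 5 of the 9 genes tested were called in p210 and 5 in T315I, at an adjusted p under 0.05 in edgeR's quasi-likelihood test over 9978 genes. In p210 aub, AGO3 and krimp rose and piwi and vas fell; in T315I aub and AGO3 rose and piwi, vas and qin fell. That is 55.6% of the genes tested in each comparison, close to the share of all genes called, 57.1% for p210 (26.9% higher and 30.3% lower) and 49.3% for T315I (20.5% higher and 28.7% lower). The genes did not move one way: their median log2 fold change was 0.06 in p210, beside 0.05 for all genes, and -0.13 in T315I, beside -0.02. Libraries of the 2 groups did not overlap for 5 genes in p210, against 61.6% of all genes, and for 6 genes in T315I, against 58.1%. Between T315I and p210 none of the 9 was called.

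**Figure D2:**
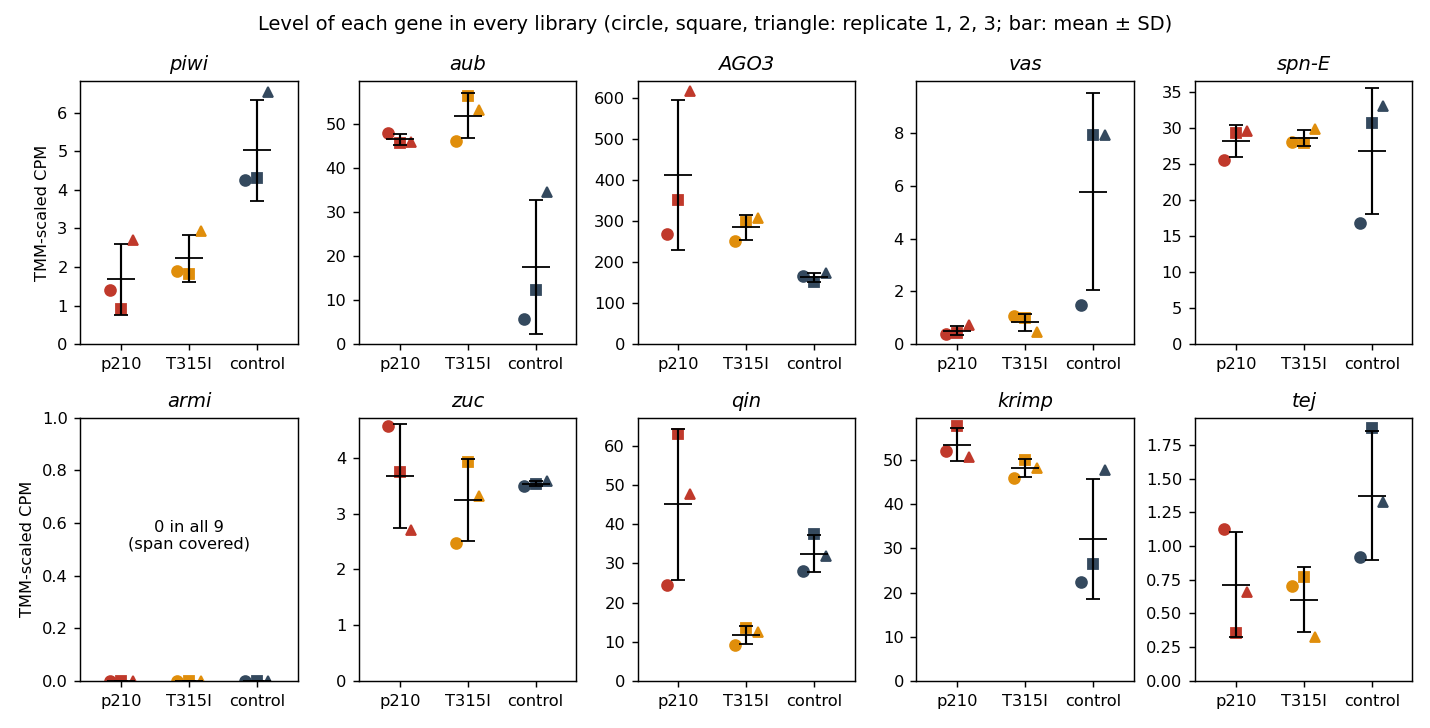
CPM of each gene in the 3 libraries of p210, T315I and control, with a bar at each group mean. The control libraries of aub lie between 5.72 and 34.6 CPM, all below the p210 and T315I libraries, and those of vas between 1.48 and 7.95 CPM, all above them.

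The PIWI genes moved in opposite directions. piwi (FBgn0004872, 2L:10982205-10987420), the nuclear PIWI protein that directs silencing of chromatin at transposons, had 1.41, 0.921 and 2.71 CPM in p210, 1.91, 1.83 and 2.94 CPM in T315I, and 4.24, 4.30 and 6.53 CPM in the control. Every control library was above every other library, although these levels rest on 13 to 69 counts per library. piwi fell 3.01-fold in p210 (log2 fold change -1.59 ± 0.45, SE, n = 3 libraries per group, edgeR adjusted p = 0.0132) and 2.27-fold in T315I (-1.18 ± 0.44, edgeR adjusted p = 0.0483). The T315I call lay next to the threshold and was lost in 8 of 19 alternatives, among them those without p210 replicate 1, any 1 T315I library, or control replicate 2 or 3 (edgeR adjusted p = 0.0663 to 0.154); the p210 call was lost without p210 replicate 1 or 2 (edgeR adjusted p = 0.0503 and 0.0524).

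aub (FBgn0000146, 2L:10997819-11001476) encodes Aubergine, the cytoplasmic PIWI protein that cleaves transposon transcripts. It had 47.9, 45.7 and 45.8 CPM in p210, 46.2, 56.3 and 53.1 CPM in T315I, and 5.72, 12.4 and 34.6 CPM in the control. The 6 libraries with a transgene lay close together, while the highest control library was 6.06 times the lowest. aub rose 2.59-fold in p210 (log2 fold change 1.37 ± 0.47, edgeR adjusted p = 0.0321) and 2.89-fold in T315I (1.53 ± 0.47, edgeR adjusted p = 0.0246). The calls held in 11 of 20 and 15 of 20 alternatives. Control replicate 3 set much of the size: without it the log2 fold changes were 2.29 and 2.48 (edgeR adjusted p = 0.00034 and 0.000276). The p210 call was lost without any 1 p210 library or without control replicate 2, and the T315I call without T315I replicate 2 or 3 or control replicate 2 (edgeR adjusted p = 0.0513 to 0.113). Scaled to the plasmatocyte markers, aub was 0.92 and 1.11 higher on the log2 scale and neither call held (edgeR adjusted p = 0.139 and 0.0792). The same control library stood apart in 10 lamellocyte genes, markers of the blood cell that flies form on wasp attack or in hematopoietic mutants. They summed to 16980 to 22630 CPM in p210, 18130 to 21450 in T315I, and 4430, 3894 and 9360 CPM in control replicates 1, 2 and 3. Genes of DNA replication did likewise, at 952 to 1004 CPM in p210, 873 to 932 in T315I and 396, 332.5 and 603.3 in the control; their part in the rise of aub was not tested.

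AGO3 (FBgn0250816) encodes the partner of Aubergine in the ping-pong cycle. It had 268.7, 351.8 and 617.9 CPM in p210, 250.8, 298.0 and 306.9 CPM in T315I, and 165.3, 151.8 and 172.3 CPM in the control. The groups with a transgene did not overlap with the control, and the p210 libraries spread most, by 2.3 times. AGO3 rose 2.53-fold in p210 (log2 fold change 1.34 ± 0.27, edgeR adjusted p = 0.00287), a call that held in 20 of 20 alternatives, at 0.75 with the plasmatocyte scaling, and 1.75-fold in T315I (0.81 ± 0.26, edgeR adjusted p = 0.0303). The T315I call was lost in 7 of 20, among them those without T315I replicate 2 or 3 or control replicate 2 or 3 (edgeR adjusted p = 0.0537 to 0.0871) and with the plasmatocyte scaling, where the log2 fold change was 0.32 (edgeR adjusted p = 0.268). Without p210 replicate 3, the highest library, the p210 log2 fold change was 0.94 (edgeR adjusted p = 0.00538). AGO3, the gene with the longest span, held 63 to 77.4% of the summed CPM of the 10 genes in p210, 64.9 to 67.1% in T315I and 50.8 to 66.6% in the control. Whether spliced RNA, introns or the insertions carry its rise was not tested. As a description, chosen after the values were seen, 8 other tested genes with spans of at least 20 kb and over 50% transposon sequence had a median log2 fold change of -0.11 in p210 (2 higher, 2 lower) and -0.12 in T315I (2 higher, 2 lower). Among all genes, 57.1% were called in p210 and 49.3% in T315I.

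Of the helicase genes, vas fell and spn-E was not called. vas (FBgn0283442) encodes Vasa, the DEAD-box helicase that marks germ cells and serves the ping-pong cycle. Its free part, which ends the gene, had 0.396, 0.425 and 0.732 CPM in p210, 1.06, 0.985 and 0.457 CPM in T315I, and 1.48, 7.94 and 7.95 CPM in the control. These are 6 to 10 counts per library in p210, 7 to 15 in T315I and 8, 72 and 84 in the control, so control replicate 1 lay far below the other control libraries and still above all 6 others in CPM. vas fell 11.3-fold in p210 (log2 fold change -3.50 ± 0.66, edgeR adjusted p = 0.00233) and 7.03-fold in T315I (-2.81 ± 0.63, edgeR adjusted p = 0.00764), and both calls held in the 19 alternatives that tested it. Genes of spermatocytes and testis moved with it: 23 of them summed to 185.3, 167.7 and 249.0 CPM in p210, 375.2, 250.1 and 297.2 CPM in T315I, and 400.6, 1773 and 1169 CPM in control replicates 1, 2 and 3, where replicate 1 is again the low one. Of their 20 tested, 19 fell in p210 and 18 in T315I, with medians of -2.55 and -1.99. Among all genes, 30.3% and 28.7% were called lower. The 7 genes of the somatic gonad summed to 5.45 to 8.86 CPM in p210, 8.51 to 15.0 in T315I and 29.0, 90.4 and 62.4 CPM in the control, and all 5 tested fell in both groups. The part of gonad RNA in the falls of vas and piwi was not tested.

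spn-E (FBgn0003483, 3R:15837419-15844415) encodes Spindle-E, a helicase with a Tudor domain needed for ping-pong amplification. It had 25.6, 29.3 and 29.6 CPM in p210, 28.0, 28.0 and 29.9 CPM in T315I, and 16.8, 30.7 and 33.0 CPM in the control. The groups overlapped, with control replicate 1 the lowest of the 9. Its log2 fold change was 0.06 ± 0.22 in p210 (edgeR adjusted p = 0.828) and 0.08 ± 0.22 in T315I (edgeR adjusted p = 0.773), and was below 0 under the plasmatocyte scaling (-0.47 and -0.39, not called).

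zuc (FBgn0261266, 2L:11988735-11989882) encodes Zucchini, the mitochondrial nuclease that cuts piRNA precursors. It had 4.58, 3.75 and 2.71 CPM in p210, 2.47, 3.94 and 3.33 CPM in T315I, and 3.51, 3.53 and 3.60 CPM in the control. The control libraries lay within the range of both other groups. Its log2 fold change was 0.06 ± 0.32 in p210 (edgeR adjusted p = 0.891) and -0.13 ± 0.32 in T315I (edgeR adjusted p = 0.765).

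Among the Tudor domain genes, qin had its lowest values in T315I. qin (FBgn0263974) encodes a protein with Tudor domains and an E3 ligase domain that keeps ping-pong between Aubergine and AGO3. It had 24.5, 63.0 and 47.8 CPM in p210, 9.18, 13.6 and 12.5 CPM in T315I, and 28.0, 37.6 and 31.9 CPM in the control. Every T315I library was below every other library, while the p210 libraries lay on both sides of the control. qin fell 2.77-fold in T315I (log2 fold change -1.47 ± 0.31, edgeR adjusted p = 0.00674), a call that held in 20 of 20 alternatives (-1.97 to -1.30). In p210 it was not called (0.47 ± 0.30, edgeR adjusted p = 0.214), except without p210 replicate 1, where it was 0.79 higher (edgeR adjusted p = 0.0168).

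krimp (FBgn0034098, 2R:16238103-16240722) encodes Krimper, a Tudor protein that brings AGO3 to Aubergine. It had 52.2, 57.6 and 50.6 CPM in p210, 46.0, 50.1 and 48.3 CPM in T315I, and 22.3, 26.5 and 47.7 CPM in the control. Control replicate 3 again stood above the other control libraries and reached the T315I range. krimp rose 1.65-fold in p210 (log2 fold change 0.72 ± 0.24, edgeR adjusted p = 0.0278), a call that held in 13 of 20 alternatives, and was not called in T315I (0.57 ± 0.24, edgeR adjusted p = 0.0744). Without control replicate 3 both were called, at 1.09 and 0.98 (edgeR adjusted p = 0.000385 and 0.00081). The p210 call was lost without p210 replicate 1 or 2 or control replicate 2 (edgeR adjusted p = 0.0532 to 0.0899) and under the plasmatocyte scaling (0.23, edgeR adjusted p = 0.552).

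tej (FBgn0033921, 2R:14300103-14302353) encodes Tejas, a Tudor protein that binds Vasa. It had 1.13, 0.354 and 0.659 CPM in p210, 0.706, 0.774 and 0.326 CPM in T315I, and 0.922, 1.87 and 1.33 CPM in the control. The T315I libraries were all below the control, and those of p210 overlapped with it. It was not called in p210 (log2 fold change -0.94 ± 0.53, edgeR adjusted p = 0.155) or T315I (-1.21 ± 0.54, edgeR adjusted p = 0.0904).

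**Figure D3:**
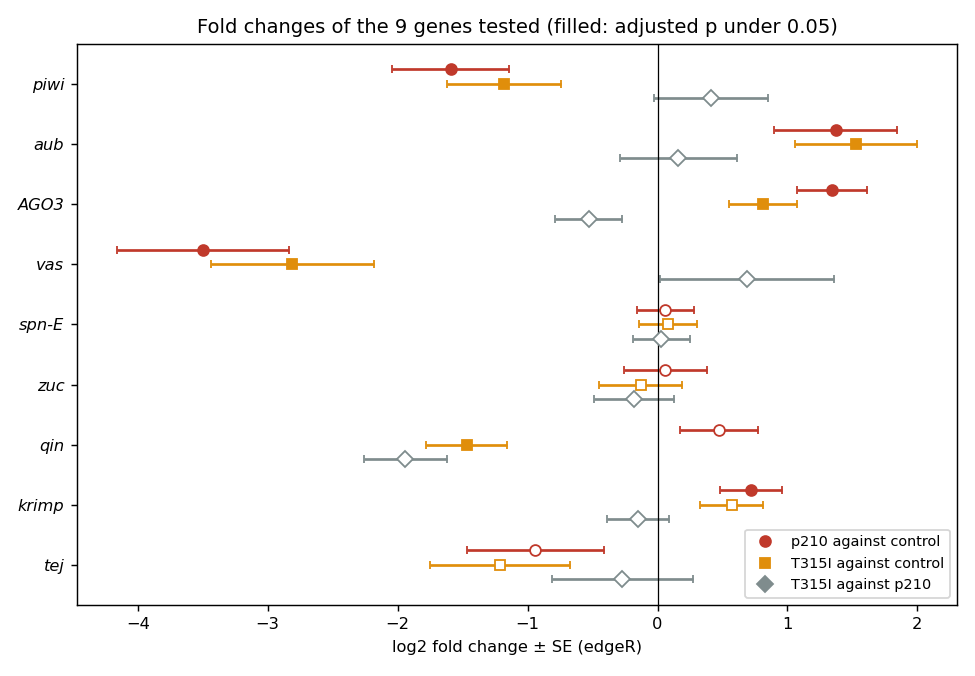
Log2 fold change ± SE (edgeR) of each of the 9 genes tested in the 3 comparisons: each transgene against control, and T315I against p210; filled symbols have an adjusted p under 0.05. vas has the lowest values against the control, -3.50 and -2.81, and qin is the only gene of the 9 where p210 and T315I lie more than 1 log2 unit apart, at -1.94.

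T315I against p210 compares the groups with a transgene. As their strain is not given, the form of the kinase and the strain cannot be told apart in it. By edgeR 1 gene of 9978 was called, 0.01% (0% higher and 0.01% lower), while 348 had an unadjusted p under 0.05; DESeq2 called 35 genes and limma-voom 1. Of the 9 genes, qin and krimp had libraries that did not overlap, both lower in T315I, against 16.7% of all genes. qin was 3.84-fold lower in T315I, 9.18 to 13.6 CPM against 24.5 to 63.0 CPM in p210 (log2 fold change -1.94 ± 0.32). With an unadjusted p of 0.000136 it ranked number 5 of 9978 genes and had an edgeR adjusted p of 0.271, so it was not called. It was called by DESeq2 (-1.93, adjusted p = 4.53e-05), with the plasmatocyte scaling (-1.83, edgeR adjusted p = 0.0361) and without p210 replicate 1, its lowest p210 library (-2.24, edgeR adjusted p = 0.019). AGO3 was 0.53 ± 0.26 lower on the log2 scale and vas 0.69 ± 0.67 higher, with edgeR adjusted p = 0.999 each. The other 6 lay between -0.27 and 0.41.

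Levels between genes were compared as CPM per kb of free span, which counts introns as well as exons. The order depends on that length. AGO3, with 135048 bp of free span and 3182 bp of exons, averaged 412.8 CPM in p210. krimp, with 2620 bp and 2549 bp, averaged 53.5 CPM. An order per exon length was not computed. In p210, krimp was highest at 20.4 ± 1.4, followed by aub at 13.0 ± 0.347 and spn-E at 5 ± 0.394 (SD, n = 3), and krimp and aub did not overlap with each other or with the rest, while spn-E reached down to the highest AGO3 library. zuc at 3.40 ± 0.867, AGO3 at 3.06 ± 1.35 and qin at 2.48 ± 1.06 did not differ beyond their spread, nor did piwi at 0.334 ± 0.184, tej at 0.317 ± 0.174 and vas at 0.238 ± 0.0855. In T315I the order was the same down to AGO3, with krimp at 18.4 ± 0.772 and aub at 14.5 ± 1.44, but qin, at 0.645 ± 0.126, lay next to piwi at 0.442 ± 0.123 and vas at 0.383 ± 0.151. In the control krimp had 12.3 ± 5.2, and aub at 4.91 ± 4.23, spn-E at 4.77 ± 1.56, zuc at 3.28 ± 0.0444 and vas at 2.66 ± 1.71 did not differ beyond their spread; qin had 1.79 ± 0.264, AGO3 1.21 ± 0.077, piwi 1.00 ± 0.26 and tej 0.61 ± 0.212. Among 9763 genes ranked on this scale, krimp was at percentile 71.3 in p210, 69.4 in T315I and 56.8 in the control, aub at 60.4, 63.8 and 33.7, and piwi at 12.3, 13.1 and 14.7. Per kb of free span these genes did not share a level in hemocyte RNA. On that scale krimp and aub were in the upper part of the genes tested in p210 and T315I. There piwi, tej and, in those groups, vas were in the lowest part.

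**Figure D4:**
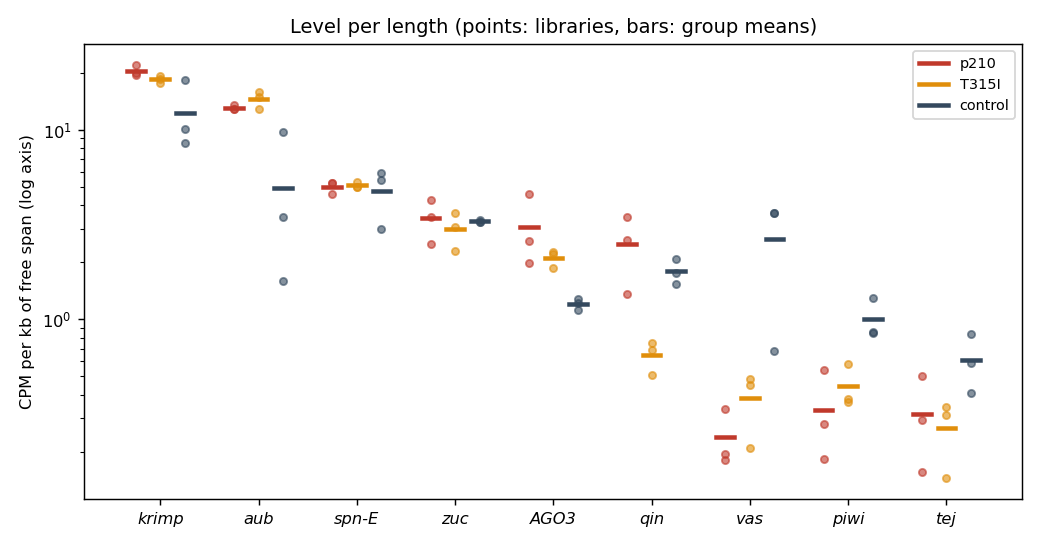
CPM per kb of free span (log axis) of the 9 genes tested in each library (points) of p210, T315I and control, with a bar at each group mean. krimp and aub stand highest in p210 and T315I, at means of 13.0 to 20.4, and piwi, tej and vas lowest, at means of 0.238 to 0.442.

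The genes whose profile over the 9 libraries was most like that of a member were found by the root mean square difference of log2(CPM + 0.5), each profile centred on its mean. They were CG7352 (0.28) and CG44836 (0.282) for piwi, CG5381 (0.165) and CR33294 (0.231) for aub, and eIF4EHP (0.0962) and MYPT-75D (0.16) for AGO3. For vas they were CG5421 (0.185) and rpk (0.197), for zuc CG10638 (0.0871) and Nbr (0.117), and for spn-E ana3 (0.0599) and Msh6 (0.0786). For krimp they were RNaseX25 (0.102) and PolD1 (0.106), and for tej CG2617 and CG7694 (0.208 each). qin had the least close match, gukh at 0.402 and bip1 at 0.47. None of the 9 genes was among the 2 most alike of another: the nearest of them ranked between 550 (krimp, for aub) and 3845 (spn-E, for zuc), and the smallest difference between any pair was 0.348, between krimp and spn-E. gukh lies 334 kb from qin on 3R. It had 41.5, 62.3 and 79.7 CPM in p210, 23.9, 29.5 and 24.7 CPM in T315I, and 48.1, 61.4 and 35.2 CPM in the control. Its T315I libraries too were the lowest, which follows from picking it for a profile like that of qin. Of the 11 tested neighbours of qin within 30 kb, 1 was called higher and 5 lower in each comparison with the control. Among all genes, 26.9% were called higher and 30.3% lower in p210, and 20.5% and 28.7% in T315I. piwi and aub, which moved in opposite directions, lie 10399 bp apart on 2L and on the same strand.

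The 35 other piRNA pathway genes in the table gave 31 tested; 11 rose and 3 fell in p210, with a median log2 fold change of 0.35, and 8 rose and 3 fell in T315I, with a median of 0.29. These are 45.2% and 35.5% called, below the 57.1% and 49.3% of all genes. The number that rose depended on single libraries: in p210 it was 7 without control replicate 2, and in T315I it was 3 without T315I replicate 3, 4 without T315I replicate 1, T315I replicate 2 or control replicate 2, and 12 without control replicate 1. In p210 2 fell without p210 replicate 2, and in T315I 2 fell without any 1 T315I or control library. The share of all genes called moved too, to 47.5% in p210 without control replicate 2. In T315I it was 37.5%, 32.2% and 32% without T315I replicate 1, 2 and 3. Without control replicate 1 and 2 it was 52.5% and 33.9% in T315I. Under the plasmatocyte scaling 0 rose and 4 fell in p210, and 0 rose and 3 fell in T315I, so the rises are relative to the scaling of all genes. Nxt1 and nxf2, parts of the Panoramix complex that acts with Piwi on nascent transcripts, rose by 0.84 ± 0.17 and 0.63 ± 0.15 in p210 (edgeR adjusted p = 0.00285 and 0.00592) and by 0.79 ± 0.17 and 0.61 ± 0.15 in T315I (edgeR adjusted p = 0.00652 and 0.0103). Panx, which encodes Panoramix itself, was not called (-0.01 ± 0.18 and 0.07 ± 0.18, edgeR adjusted p = 0.974 and 0.775), nor was arx, which encodes a cofactor of Piwi (-0.07 ± 0.16 and -0.21 ± 0.16); both were named after their values were seen. Su(var)205, which encodes heterochromatin protein HP1a, rose by 0.62 ± 0.14 and 0.42 ± 0.14 (the T315I call was lost without any 1 T315I library or control replicate 2, and the value was -0.05 under the plasmatocyte scaling), and sov, a zinc finger gene of heterochromatin, by 0.80 ± 0.16 and 0.84 ± 0.16. ctp, a dynein light chain, rose by 0.73 ± 0.16 in p210 and 0.58 ± 0.16 in T315I, where the call was lost without T315I replicate 3. shu, a cochaperone of piRNA loading, rose by 0.77 ± 0.19 in p210 and was not called in T315I (0.38 ± 0.19, edgeR adjusted p = 0.127). Genes of the mitochondrial steps did not move one way. mino, an acyltransferase of the mitochondrial membrane, fell and averaged 37.7 CPM in p210, 54.3 in T315I and 90.1 in the control (-1.25 ± 0.21, edgeR adjusted p = 0.00163, and -0.73 ± 0.20, edgeR adjusted p = 0.017, lost without T315I replicate 1 or control replicate 1). papi, a Tudor protein of piRNA trimming, fell and averaged 26.7, 28.1 and 46.2 CPM (-0.79 ± 0.13 and -0.72 ± 0.13). daed, also of the mitochondrial steps and named here after its values were seen, rose in p210 (0.52 ± 0.19, edgeR adjusted p = 0.038) and was not called in T315I (0.43 ± 0.19). Gasz, likewise at the mitochondrion, was not called (0.40 ± 0.16 and 0.24 ± 0.16). The third that fell, del, which encodes Deadlock of the Rhino complex, averaged 1.65, 1.88 and 6.44 CPM and is named outside the rule. The abundant members Hsp83, tud and Tudor-SN were not called in either group, with log2 fold changes of 0.21 to 0.31. The members SoYb, rhi, moon and squ were at 0 everywhere, with spans covered by other genes.

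Sources and targets of piRNAs gave few counts. lncRNA:flam, the piRNA cluster at X:21631891-21790731 that feeds piwi in somatic gonad cells, had 9.21, 8.92 and 13.7 CPM in p210, 7.98, 9.35 and 9.20 CPM in T315I, and 10.3, 10.9 and 14.6 CPM in the control. The groups overlapped for p210 and T315I lay below the control, with no call (-0.18 ± 0.24, edgeR adjusted p = 0.554, and -0.44 ± 0.24, edgeR adjusted p = 0.163). The 13 Stellate genes, which aub and piRNAs silence in testis, were at 0 in all libraries. Of the 34 Suppressor of Stellate genes, which give those piRNAs, 3 were tested, and 3 fell in p210 and 2 in T315I. Among all genes, 30.3% and 28.7% were called lower. Counts of the 34 summed to 21, 18 and 60 in p210, 56, 28 and 35 in T315I and 91, 189 and 199 in the control. These are near-identical copies, as are the Stellate genes, so the split of reads among copies is uncertain. Whether reads that match several copies were counted was not tested, so the 0 of the Stellate genes is no measure of their expression.

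The siRNA and miRNA pathways act in somatic cells too. Of 14 siRNA and miRNA pathway genes tested, 2 rose and 2 fell in each group, with medians of 0.22 and 0.10. That is 28.6% called, below the 57.1% and 49.3% of all genes. With 1 library left out 0 to 4 rose in p210 (0 without p210 replicate 2 or 3, 4 without p210 replicate 1, and 1 without any 1 T315I library or control replicate 2 or 3) and 1 to 4 in T315I (1 without T315I replicate 2 or 3 or control replicate 2, 3 without control replicate 3, and 4 without p210 replicate 1 or control replicate 1). In T315I 1 fell without T315I replicate 2 or 3 or control replicate 2. With 1 library left out, 46.2 to 60.3% of all genes were called in p210 and 32 to 52.5% in T315I. Dcr-1, which makes miRNAs, rose by 0.38 ± 0.13 in p210 and 0.54 ± 0.13 in T315I, calls that held in 11 of 20 and 19 of 20 alternatives (in p210 not without p210 replicate 2 or 3 or control replicate 1 or 3), and AGO2, the siRNA Argonaute, was not called (0.21 ± 0.11, edgeR adjusted p = 0.124, and 0.29 ± 0.11, edgeR adjusted p = 0.0538). gw, a silencing partner of miRNA Argonautes, rose in p210 (0.32 ± 0.11) and Dcr-2, which makes siRNAs, in T315I (0.35 ± 0.12). The gw call held in 8 of 20 alternatives and was lost without p210 replicate 2 or 3, any 1 T315I library or control replicate 2. The Dcr-2 call held in 13 of 20 and was lost without T315I replicate 2 or 3 or control replicate 2. Under the plasmatocyte scaling gw and Dcr-2 were below 0 in both groups and Dcr-1 in p210 (-0.16). blanks, a double-stranded RNA binding gene known from testis, fell by 2.90 ± 0.43 in p210 and 2.37 ± 0.42 in T315I, and loqs, a partner of Dicer, fell by 1.27 ± 0.33 and 1.07 ± 0.32, the T315I call being lost without T315I replicate 2 or 3 or control replicate 2.

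Genes listed as repressors of germline genes in somatic cells mostly rose: 10 of 16 tested in p210 with 1 lower, and 9 in T315I with 1 lower, at medians of 0.49 and 0.41, while 26.9% and 20.5% of all genes were called higher. The 10 include E2f1, an activating E2F and not a repressor (0.52 ± 0.20, edgeR adjusted p = 0.0467), which was not called in T315I (0.30 ± 0.20). Under the plasmatocyte scaling 0 rose in either group, with 1 lower in p210 and 2 in T315I. Some members of the dREAM complex, which holds cell cycle and germline genes repressed, rose, others were not called, and E2f2 fell. mip120 rose by 0.71 ± 0.15 in p210 and 0.57 ± 0.15 in T315I (lost without T315I replicate 2), Dp by 0.77 ± 0.17 and 0.72 ± 0.17, and Rbf, the retinoblastoma protein, by 0.81 ± 0.18 and 0.71 ± 0.18. mip130 rose by 0.87 ± 0.18 and 0.80 ± 0.18, and Mi-2, a chromatin remodeller, by 0.69 ± 0.13 and 0.68 ± 0.13, with 28.4% and 25.1% of their spans free. Of the dREAM members, mip40 had -0.20 ± 0.17 and -0.41 ± 0.17, and lin-52 0.25 ± 0.19 and 0.10 ± 0.19, with no call. Rbf2, the second retinoblastoma gene, had 0.23 ± 0.28 and 0.30 ± 0.28, also with no call. The histone demethylase gene Kdm5 rose by 0.70 ± 0.16 and 0.62 ± 0.16. E2f2, the repressive E2F, fell by 0.36 ± 0.10 and 0.47 ± 0.10, the p210 call being lost without p210 replicate 2 or 3. Of 7 heterochromatin genes tested, 4 rose and 0 fell in each group.

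Of 15 other germline genes tested, 2 rose and 7 fell in p210, with a median of -0.40, and 0 rose and 6 fell in T315I, with a median of -0.51. That is 60% and 40% called, beside 57.1% and 49.3% of all genes. With 1 library left out 0 to 2 rose and 6 to 9 fell in p210, with 0 higher without p210 replicate 2 or 3 or control replicate 2 and 1 without T315I replicate 2 or 3 or control replicate 3. In T315I 0 to 1 rose and 4 to 7 fell. There 4 were lower without T315I replicate 2 or control replicate 2, and 1 was higher without control replicate 3. Of all genes, 46.2 to 60.3% were called in p210 and 32 to 52.5% in T315I with 1 library left out. orb, a regulator of translation in the oocyte, averaged 12.6 CPM in p210, 22.1 in T315I and 81.8 in the control (-2.70 ± 0.52, edgeR adjusted p = 0.00256, and -1.89 ± 0.51, edgeR adjusted p = 0.0141, lost without T315I replicate 2 or control replicate 2). exu, needed for localised mRNA in the oocyte and in spermatids, averaged 82.1, 124.1 and 407.5 CPM (-2.31 ± 0.42 and -1.72 ± 0.41). Rbp9, bgcn and bru1, RNA regulators of germ cells, fell by 2.39, 2.69 and 1.65 in p210 and by 2.15, 1.71 and 1.61 in T315I, where the bgcn call was lost without T315I replicate 2 or 3 or control replicate 2. bam, the switch for germ cell differentiation, moved the other way, at 14.5 CPM in p210, 12.5 in T315I and 3.94 in the control: it rose by 1.82 ± 0.63 in p210 (edgeR adjusted p = 0.0337) and was not called in T315I (1.59 ± 0.63, edgeR adjusted p = 0.0611). Its control libraries had 0.738, 1.98 and 9.09 CPM, and without the highest, replicate 3, the log2 fold changes were 3.29 and 3.10, both called. The p210 call held in 12 of 20 alternatives and was lost without any 1 p210 library or control replicate 2. The defining germ cell genes nos and osk had summed counts over 3 libraries of 2 and 5 in p210, 4 and 2 in T315I, and 3 and 1 in the control, though 13.1% of the osk span is free and the span of nos was not matched to the annotation. otu had 13, 13 and 26 counts in p210, T315I and control, ovo 15, 12 and 52, and zpg, whose span is covered, 0 in all. The somatic gonad markers tj, with 4, 3 and 4, and upd1, with 11, 9 and 23, have their whole span free. Of 16 meiosis genes tested, 2 rose and 3 fell in p210, and 1 rose and 4 fell in T315I. None of the members of these lists was called between T315I and p210.

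**Figure D5:**
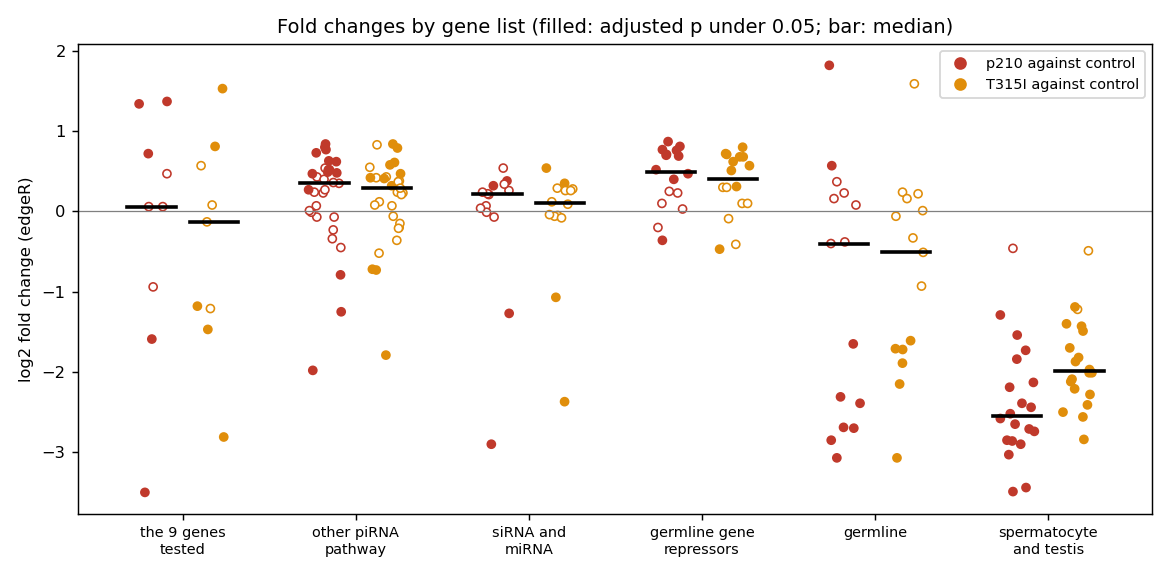
Log2 fold change (edgeR) of each gene tested in 6 lists for p210 against control and T315I against control; filled points have an adjusted p under 0.05 and bars are list medians. Points of the 9 genes run from -3.50 to 1.53, while the medians of spermatocyte and testis genes lie at -2.55 and -1.99 and those of germline gene repressors at 0.49 and 0.41.

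Lists of cell types gave the setting of these values. Among all genes, 26.9% were called higher and 30.3% lower in p210, and 20.5% and 28.7% in T315I. Of 13 plasmatocyte genes tested, 6 rose in p210 and 5 in T315I, of 9 lamellocyte genes 8 rose in each, and of 14 DNA replication genes 13 rose in each, with 0 lower in all 3 lists. Of 5 crystal cell genes 2 rose and 1 fell in each group. Of 11 fat body genes 9 fell in p210 and 8 in T315I, of 12 muscle genes 11 in each, and of 8 midgut genes 5 and 7, with 0 higher in all 3 lists. Of 16 dosage compensation and Y-linked genes, 2 rose and 9 fell in p210, and 1 rose and 9 fell in T315I. Such genes can move with the share of male larvae and of testis, which was not tested. The part of these differences in the values of the 9 genes was not tested.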

How the data were processed

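Hemocyte RNA of 9 libraries, 3 per group, was sequenced from a stranded total RNA kit, as the labels' protocols say. The submitters' processing notes list HISAT2 2.1.0, featureCounts 2.0.1, FastQC 0.11.8 and build dm6; not given in the sources used here are annotation release, strand setting and feature type. The table deposited by the authors holds raw counts of reads per gene, not normalized.

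Of 17874 symbols, 17554 matched the annotation BDGP6.54 (release 115), from which spans and overlaps were computed. The test was that of edgeR 4.0.16 in R 4.3.3 (filterByExpr, 9978 genes kept, TMM, robust quasi-likelihood test over all 9 libraries, two-sided, Benjamini-Hochberg over all genes, threshold 0.05). Standard errors are the absolute log2 fold change over the square root of F, and approximate. Floors of 3 counts cover counting error only. Replicates differed beyond counting error (chi-square of 14.4 to 98.5 per degree of freedom), and p-values measure the spread between these biological replicates.

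The members and lists (other piRNA pathway, germline, meiosis, testis, somatic gonad, siRNA and miRNA, repressors, heterochromatin, blood cell types, fat body, muscle, midgut, dosage compensation and Y-linked, DNA replication) were chosen with earlier results of these data known. Named were all members, up to 8 called genes of 4 lists by adjusted p with up to 3 abundant uncalled ones, and the 2 most alike genes per member with a mean of at least 1 CPM. Neighbours, transposon-rich genes, flam and Stellate were described after seeing the values. Alternatives were RLE, upper-quartile, plasmatocyte-marker and no scaling, DESeq2 1.42.0, limma-voom (limma 3.58.1), no filter, 5 CPM required in 3 libraries, the replicate number as a block, the 2 groups alone, other-tissue genes left out, and each library left out.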

Additional observations from a re-analysis of the deposited data

How the results depend on the processing

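Of the 9 genes tested, 5 were called in p210 against control. The number was 3 with scaling to plasmatocyte markers, with no scaling factors and with the 2 groups alone. It was 1 with the filter of 5 CPM, which leaves piwi, vas, zuc and tej untested, and 2 to 5 with 1 library left out. The shares of all genes called were 41.3%, 50.7%, 44.4%, 48.1% and 46.2 to 60.3% in that order, against 57.1%. For T315I against control, also 5, the number was 3 with the plasmatocyte scaling and 2 with the 5 CPM filter. With 1 library left out it was 2 to 5. The shares of all genes called were 40%, 44.3% and 32 to 52.5% in that order, against 49.3%. For T315I against p210, with 0, the number was 1 with the plasmatocyte scaling and 1 with DESeq2. It was 0 to 1 with 1 library left out. The gene called was qin each time. The causes of these changes were not tested. Other alternatives gave counts within 1.5 times.

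Some directions turned, and no turned value was called. In p210 against control, zuc was at -0.09 with upper-quartile scaling, -0.41 with plasmatocyte scaling, -0.09 with no factors, -0.01 with the 2 groups alone and -0.11 to 0.25 with 1 library left out. spn-E was at -0.07 with upper-quartile, -0.47 with plasmatocyte and -0.10 with no scaling, at -0.13 with the 5 CPM filter and at -0.13 to 0.20 with 1 library left out. qin was at -0.14 with plasmatocyte scaling, as were Dcr-1 at -0.16, Dcr-2 at -0.31, gw at -0.20 and CoRest at -0.12. In T315I against control, spn-E was at -0.39 with plasmatocyte scaling, -0.02 with no factors, -0.06 with the 5 CPM filter and -0.09 to 0.26 with 1 library left out, and zuc at -0.25 to 0.06 with 1 left out. With plasmatocyte scaling Su(var)205 was at -0.05, shu at -0.08, Dcr-2 at -0.13, gw at -0.19 and CoRest at -0.16. In T315I against p210, leaving out 1 library gave -0.34 to 0.00 for zuc, -0.04 to 0.08 for spn-E and -0.57 to 0.24 for tej.

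Of all genes, 5700 were called in p210 against control and 3671 with the 5 CPM filter. For T315I against p210 the 1 call became 5 with plasmatocyte scaling, 35 with DESeq2, 6 with the 2 groups alone, 2 with no filter and 0 to 4 with 1 library left out. Same-numbered libraries did not deviate together (correlations of -0.36 to 0.18, best with the own number in 5 of 18 cases); with a replicate block 5, 5 and 0 members were called, and 5299, 4125 and 1 genes in all. Low counts limit piwi, vas and tej.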
